A study of Mus musculus with 27 samples.

Results

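The 10 genes described here encode the contractile apparatus of smooth muscle and its main transcriptional co-activator: Acta2, Actg2, Tagln, Cnn1, Smtn, Lmod1, Myh11, Myl9, Des and Myocd. They were chosen by name and matched to array probes through the RefSeq accession of each probe. All 10 were on the array, under 11 probes, among 37208 genes, and 9 of them passed the filter on dim signals in at least 1 comparison. Lmod1 did not pass in any.

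The study followed mouse embryonic stem cells as they formed blood through haemogenic endothelium, and asked what happens when AP-1 is blocked, a family of dimers in which JUN proteins pair with FOS, with ATF proteins or with each other. The cells carried a cassette at the Hprt locus from which doxycycline (DOX, 1 µg/ml) induces Flag-tagged dnFOS, a dominant-negative FOS. All groups came from this inducible line, grown from picked clones on mouse embryonic fibroblast feeders, so untreated samples carried the cassette as well. RNA was hybridised to 27 one-colour arrays in 13 groups, with 2 arrays in each group except untreated SM, which had 3.

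FLK1+ cells, which are mesodermal precursors of blood, endothelium and smooth muscle, were purified from embryoid bodies at 3.75 days and gave the starting group, FLK1. The same cells were placed in blast culture for 5 h (FLK1+ 5h) or for 1 day (d1 BC), and complete cultures were collected with or without DOX. After 2 days of blast culture 4 populations were sorted from untreated cultures and from cultures kept in DOX. These were SM (smooth muscle) and 3 populations set apart by KIT, TIE2 and CD41. HE1, haemogenic endothelium, had KIT and TIE2 without CD41, HE2 had all 3 markers, and HP, haematopoietic progenitors, had KIT and CD41 without TIE2. The gate that defined SM is not given in the sources used here.

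Smooth muscle contracts when myosin II, built from the heavy chain Myh11 and light chains such as Myl9, pulls on filaments of smooth muscle actin. Acta2 and Actg2 are those actins, while calponin (Cnn1), transgelin (Tagln), smoothelin (Smtn) and leiomodin (Lmod1) bind the filaments, and desmin (Des) forms intermediate filaments. The serum response factor SRF binds CArG boxes near many of these genes, and myocardin (Myocd) is its muscle-restricted co-activator. Acta2 and Tagln are also made early in many mesenchymal cells, whereas Myh11, Smtn and Lmod1 are usually read as marks of more mature smooth muscle.

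Levels are given on the log2 scale relative to the 75th percentile of the same array, so that 0 is the signal of that percentile. That percentile lay between 78.8 and 732 signal units, and 47 to 89.6% of probes were well above background on an array. The number of arrays limits the precision. No source used here states that the arrays of a group came from separate cultures, and p-values then measure only the spread between these arrays, which may be technical. Replicates correlated at 0.922 to 0.974 over genes. The arrays lay on 5 slides, and the slide number is used below to set arrays of 1 slide against each other. The Hprt transcript, at the cassette locus, was higher on every +DOX array than on every untreated array in all 6 populations, by 1.45 to 3.63 (log2).

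Several arrays stood apart in markers of other cell types. Over 12 endothelial markers such as Cdh5, the mean level was 1.44 on SM replicate 2 and 1.38 on SM +DOX replicate 2, both on slide 4, against -1.49, -1.34 and -1.46 on the other SM arrays. In untreated HE1 it was 3.16 and 3.42. Of these 12 markers, 10 to 12 were above background on each SM array. Over 12 fibroblast markers, which feeder cells also express, the mean level was 1.17 on HE1 replicate 1 and 0.86 on HE1 +DOX replicate 1, both on slide 5, against -1.50 and -0.89 on the replicate 2 arrays. The SM arrays had 2.10, 1.05 and 2.44 untreated and 2.21 and 0.50 with DOX. Over 8 markers of pluripotency and early mesoderm the mean level was -3.46 on SM replicate 2 and -3.28 on SM +DOX replicate 2, against -1.28, -1.84 and -1.44 on the other SM arrays, 1.57 and 1.65 in FLK1, and -5.39 and -5.76 in HP. Over 12 haematopoietic markers the mean level was -0.45, -0.46 and -0.06 in untreated SM and -1.16 and -0.61 in SM +DOX. It was -1.70 and -2.12 in FLK1 and 3.54 and 3.51 in HP. On every untreated SM array 11 of these 12 markers were above background. The part of other cells in the values below was not tested. Calls of contractile genes that rest on the slide 4 SM arrays or the slide 5 HE1 arrays are given with and without them. So are most, but not all, counts of the gene lists described below. Without the slide 4 arrays 1 SM +DOX array is left, and without the slide 5 arrays 1 HE1 and 1 HE1 +DOX array. The spread for such a group then comes from the other groups alone.

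**Figure D1:**
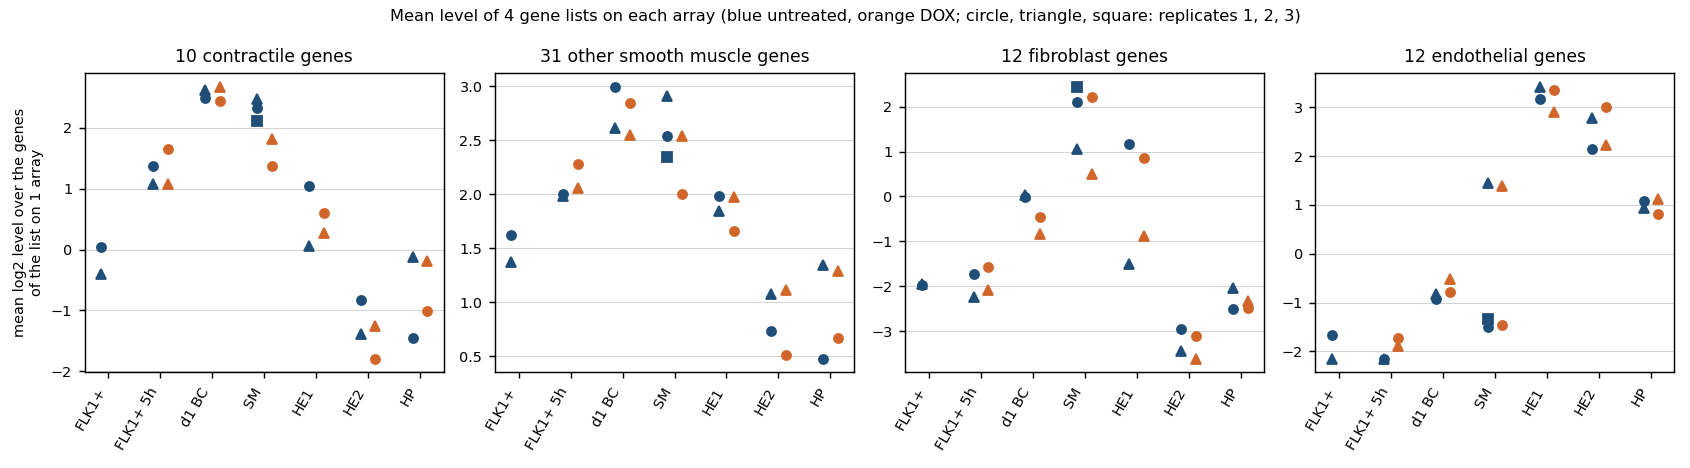
Mean log2 level, relative to the 75th percentile of the array, over the genes of 4 lists (10 smooth muscle contractile genes, 31 other smooth muscle genes, 12 fibroblast and 12 endothelial markers), with 1 point per array, blue untreated and orange +DOX, and the shape giving the replicate. The contractile genes have their highest means in d1 BC and SM, endothelial markers are raised on SM replicate 2 and SM +DOX replicate 2 (1.44 and 1.38), and fibroblast markers on HE1 replicate 1 and HE1 +DOX replicate 1 (1.17 and 0.86).

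RefSeq promoter windows of 300 bases (250 before to 50 after the transcript start, GRCm38.p6) were at hand for 6 of the 10 genes, Des, Lmod1, Myl9, Cnn1, Smtn and Acta2. They were searched on both strands for the CArG box (CC, then 6 bases that are each A or T, then GG), the AP-1 motif TGANTCA and the TEAD motif GGAATG, because SRF, the blocked factor and the TEAD co-factors recognise these. The exact CArG box was found in 1 of the 6 windows (Myl9) and in 1.63% of all 32851 promoter windows. Allowing 1 G or C among the 6 central bases, a form added after the exact box had been searched, gave 2 of 6 (Acta2 and Myl9) and 8.5% of all windows. The AP-1 motif was in 0 of 6 and in 7.81% of all, and no match says only that these letters are not in this window. The TEAD motif was in 3 of 6 (Acta2, Lmod1 and Smtn) and in 14.7% of all. A match is a description of letters and does not show that a factor binds.

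The CArG-type matches of Acta2 and Myl9 are shown because these genes carry much of what follows, each as 30 bases on the strand of the gene, 5′ to 3′, with the match in capitals. The Acta2 stretches are chr19:34255438-34255467 and chr19:34255388-34255417 on the minus strand, with matches 84 to 75 and 34 to 25 bases before the start. The Myl9 stretches are chr2:156775293-156775322 and chr2:156775355-156775384 on the plus strand, with matches 161 to 152 and 99 to 90 bases before the start. The first Myl9 match is the exact box and the other 3 have 1 G or C in the core.
Acta2, distal: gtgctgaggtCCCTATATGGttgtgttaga
Acta2, proximal: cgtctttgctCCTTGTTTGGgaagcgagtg
Myl9, distal: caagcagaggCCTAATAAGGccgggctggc
Myl9, proximal: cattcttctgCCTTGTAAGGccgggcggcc

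TEAD-motif matches are shown for comparison, since Tead1, Tead3 and Tead4 move between populations below. They lie at chr19:34255502-34255531 for Acta2 (minus strand, match 146 to 141 bases before the start), at chr1:135324671-135324700 for Lmod1 (plus strand, 130 to 125) and at chr11:3539497-3539526 for Smtn (minus strand, 222 to 217). Capitals mark the match, which in Smtn is on the strand opposite to the gene and therefore reads as the reverse complement of the motif.
Acta2: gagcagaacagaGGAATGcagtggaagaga
Lmod1: ccaagattccctGGAATGtcctcaagtttc
Smtn: cggtttgtggcaCATTCCggactttggctt

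Acta2, the smooth muscle alpha-actin, was higher at each stage of the course from FLK1 cells to the day 1 culture. In FLK1 cells its level was 1.24 and 0.87, and after 5 h of blast culture it was 4.98 and 4.76. It reached 9.08 and 8.70 in d1 BC and 9.58, 9.66 and 8.89 in SM. The first 3 stages do not overlap, while d1 BC and SM do. In the other sorted cells Acta2 was at 8.24 and 6.17 in HE1, 4.40 and 3.85 in HE2 and 4.86 and 6.50 in HP, so that HE1 and HP overlap and HE2 lies below both. The higher HE1 value is that of the array with raised fibroblast markers.

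Actg2, the smooth muscle gamma-actin, was at -3.19 and -3.45 in FLK1 and at -2.69 and -2.62 in FLK1+ 5h. It was at 1.07 and 1.55 in d1 BC and at 3.14, 0.58 and 3.25 in SM, where the low array is the one with raised endothelial markers. HE1 gave 1.18 and -3.13, a difference between replicates that spans the range from d1 BC to FLK1, and the high value is again on the array with raised fibroblast markers. In HP it was at -3.18 and -2.69, and in HE2 at -4.01 and -5.12, of which the first was not well above background.

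Tagln, an actin-binding protein of early smooth muscle, was already well above the 75th percentile in FLK1 cells, at 6.02 and 5.70. It stood at 8.97 and 8.22 in FLK1+ 5h, 9.66 and 8.74 in d1 BC and 9.05, 9.79 and 8.27 in SM, and these 3 groups overlap. HE1 had 7.61 and 7.19, HE2 4.62 and 4.87 and HP 3.52 and 6.89. The HP replicates differ by more than the means of HE1 and HE2 do.

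Cnn1, calponin, which restrains actomyosin, had another order. It was highest in FLK1+ 5h (7.23 and 6.34) and d1 BC (6.49 and 5.99), which overlap. In SM it was at 4.23, 5.09 and 4.57, below both and above FLK1 (3.98 and 3.81). It then stood at 2.24 and 0.55 in HE1, -2.66 and -1.28 in HE2 and -2.12 and 1.84 in HP. Its group means spanned 9.81 log2 units over the 13 groups, the widest span of the 9 genes with a group above background.

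Myl9, a regulatory light chain, followed a similar order. It was at 3.89 and 3.53 in FLK1, 6.45 and 5.55 in FLK1+ 5h, 6.83 and 6.62 in d1 BC and 5.01, 5.96 and 4.81 in SM. HE1 had 3.25 and 2.94, HE2 1.49 and 2.23 and HP 0.47 and 3.33. SM and FLK1+ 5h overlap, as do HE1 and HP. Myh11, the smooth muscle myosin heavy chain, was detected in part of the groups. It was well above background on both d1 BC arrays (-2.61 and -1.21) and on all SM arrays (-3.60, -2.92 and -3.34), with d1 BC above SM. It was above background on 1 of 2 arrays in FLK1+ 5h and HE2 and on none in FLK1, HE1 and HP.

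Myocd, the co-activator, was at -1.81 and -3.01 in FLK1, -2.51 and -2.06 in FLK1+ 5h, -0.79 and -1.02 in d1 BC and -1.09, -0.46 and -0.97 in SM. d1 BC and SM overlap and lie above all other groups. In HE1 it was at -3.15 and -3.73, in HP it was well above background on 1 of 2 arrays (-3.72), and in HE2 on none. Des was highest in FLK1+ 5h (-0.46 and -0.49), then in FLK1 (-1.06 and -1.86) and SM (-2.06, -1.52 and -1.28), with d1 BC at -2.28 and -2.25, and FLK1 and SM overlap. Smtn had the narrowest course, with untreated group means from 2.91 in FLK1 to 4.31 in HE2 and 3.28 in SM. Lmod1, an actin filament nucleator, was well above background on 1 SM array (-3.70) and 1 d1 BC +DOX array (-4.0) alone.

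Counted together, 9 of the 10 genes were well above background on all arrays of d1 BC and of SM, 8 in FLK1, FLK1+ 5h and HE1, 7 in HP and 5 in HE2. Of all 37208 genes, 51.9 to 65.3% were so in each of these 7 groups. This count differs little between SM and FLK1, FLK1+ 5h, d1 BC or HE1, so it does not set SM apart. Lmod1 was near background in all. The low HE2 count rests on HE2 replicate 1, with 5 genes above background, against 8 on HE2 replicate 2. HE2 replicate 1 had the lowest 75th percentile of all arrays, at 78.8 signal units, against 687 on replicate 2. Of its probes 51.1% were well above background, against 74.8% on replicate 2. The part of array signal in the HE2 count was not tested.

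**Figure D2:**
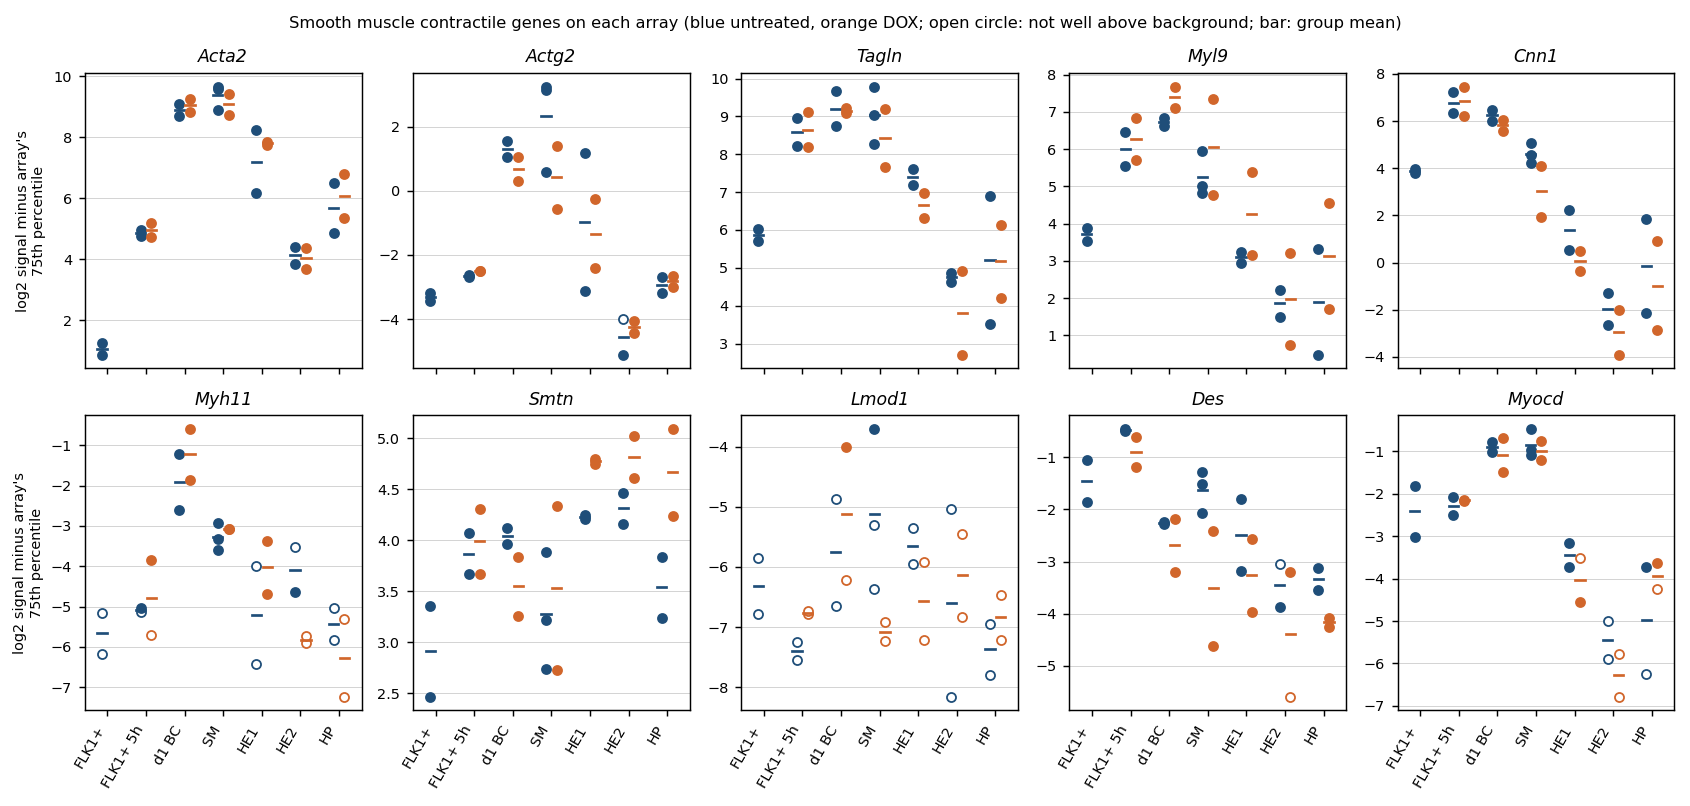
Log2 level of each of the 10 smooth muscle contractile genes, relative to the 75th percentile of the array, on all 27 arrays, with 1 panel per gene, blue untreated and orange +DOX, bars at group means and open circles for arrays on which the probe was not well above background. Acta2 climbs from 1.24 and 0.87 in FLK1 to between 8.89 and 9.66 in untreated SM, while Cnn1 is highest at 5 h (7.23 and 6.34) and in d1 BC (6.49 and 5.99), which overlap.

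Between untreated stages the first 5 h of blast culture raised Acta2. Its difference from FLK1 was 3.82 (SE 0.67, 14.1-fold, adjusted p = 0.00428 by limma), and it was 3.71 between arrays of slide 1. It was the only 1 of 8 contractile genes tested that was called (2-fold or more, with an adjusted p under 0.05), and 2.45% of all genes tested were called higher. Cnn1 (2.89, adjusted p = 0.247), Tagln (2.73, adjusted p = 0.149) and Myl9 (2.29, adjusted p = 0.328) had positive differences that did not pass. All 8 differences were positive, with a median of 1.64 against -0.20 over all genes tested. Replicate 1 of FLK1+ 5h lies on a slide of its own, and without it the Acta2 call was lost (adjusted p = 0.0996).

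From 5 h to 1 day Acta2 rose again, by 4.02 (SE 0.67, 16.2-fold, adjusted p = 0.00434) and by 3.94 within slide 1, where 0.592% of all genes tested were called higher. Actg2 differed by 3.96 (adjusted p = 0.0848) and was not called. Myh11, above background on 1 of the 2 arrays at 5 h, differed by 3.17 and was not called (adjusted p = 0.0753), and over the settings tried it ran from 1.46 to 3.87, with adjusted p from 0.0167 to 0.494. Of the others Des (-1.79) and Cnn1 (-0.54) had negative differences. The median over 9 genes was 0.72 against 0.07 over all genes. The Acta2 call was lost without replicate 1 of FLK1+ 5h (adjusted p = 0.0701), without replicate 2 of d1 BC (0.056) and with slide as a fixed block (0.0699), at differences of 3.66 or more under every setting tried. Between d1 BC and SM none of the 9 contractile genes tested was called by limma, against 0.260% of all genes, and 0 passed at an unadjusted p under 0.05 with a 2-fold change, which 5.67% of all genes did. The differences of SM minus d1 BC were 0.49 for Acta2, 1.01 for Actg2, -1.61 for Cnn1, -1.47 for Myl9 and -1.38 for Myh11.

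Over the whole course from FLK1 cells to SM, 3 of 9 contractile genes were called higher, beside 5.85% of all genes. Acta2 was higher by 8.32 (SE 0.61, 320-fold, adjusted p = 4.09e-07), Actg2 by 5.64 (SE 0.99, 49.9-fold, adjusted p = 0.00123) and Tagln by 3.17 (SE 0.86, adjusted p = 0.0263). Within slide 1 the differences were 8.52, 6.46 and 3.18. Cnn1, Myl9 and Des differed by 0.73, 1.55 and -0.16, and were not called. Without SM replicate 2 and its +DOX partner the Tagln call was lost (2.80, adjusted p = 0.0811), as it was without FLK1 replicate 1 (0.145) or 2 (0.169), without SM replicate 1 (0.053), with median scaling (2.43, adjusted p = 0.0934) and in a fit of only the groups compared (0.066), and it held in 15 of 22 settings. Acta2 and Actg2 were called in all settings tried.

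**Figure D3:**
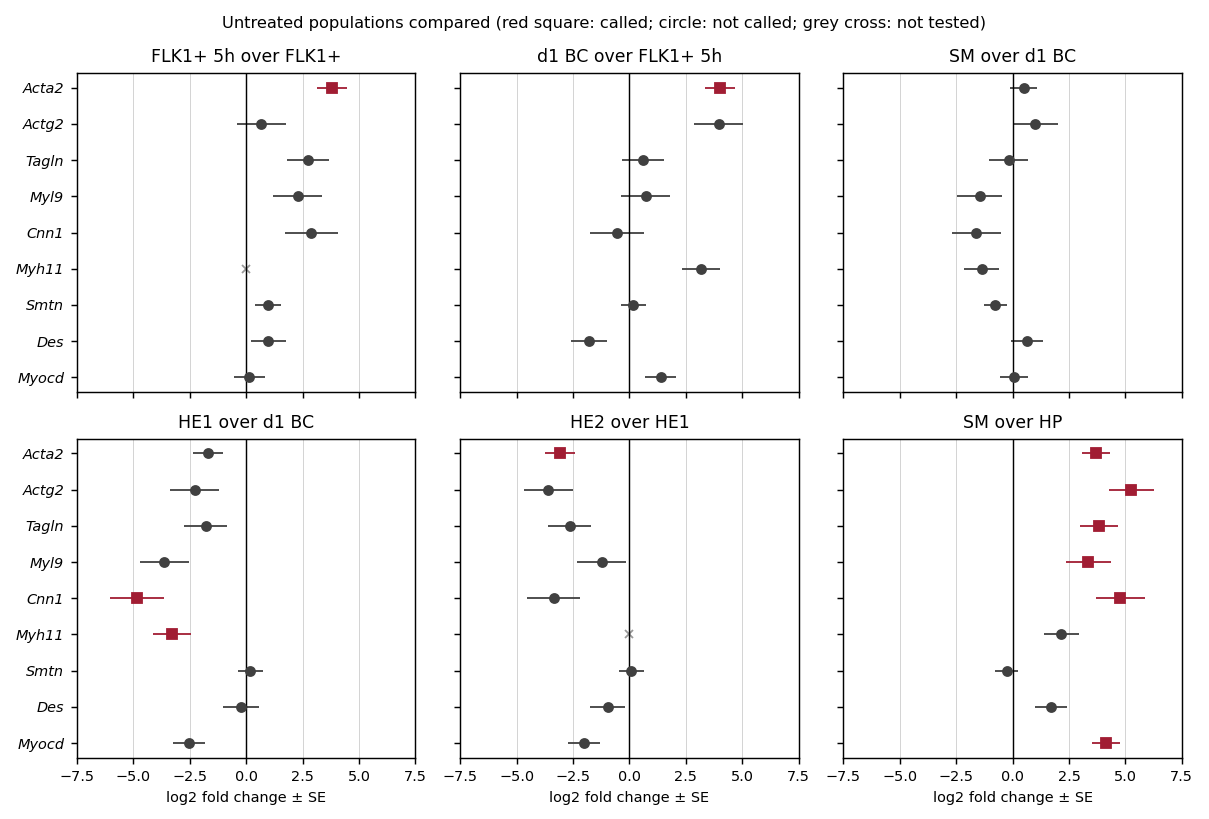
Log2 fold change of 9 smooth muscle contractile genes between untreated populations in 6 comparisons, from the fit over all 27 arrays, with bars of 1 SE on either side. Red squares were called, circles were tested and not called, and grey crosses were not tested. Acta2 is called at 5 h, at 1 day and between HE1 and HE2, and SM over HP holds 6 called genes.

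In HE1 minus d1 BC, haemogenic endothelium against the day 1 culture, 2 of 9 genes were called lower, beside 1.27% of all genes. Cnn1 fell by 4.85 on the log2 scale (SE 1.19, 28.8-fold, adjusted p = 0.0304), and Myh11 was at least 4.77-fold lower (adjusted p = 0.0393), a bound because no HE1 array was above background. Myl9 (-3.63, adjusted p = 0.0782) and Myocd (-2.54, adjusted p = 0.0525) did not pass, and the median was -2.28 against 0.08 over all genes. No slide held both groups. Without HE1 replicate 1 and its +DOX partner 1 HE1 array is left. Cnn1 then differed by -5.69, its call was lost, and Actg2 differed by -4.44. Myh11 was again lower there, with the remaining HE1 array not above background. Both calls were lost without d1 BC replicate 1, d1 BC replicate 2 or HE1 replicate 2. The mean of the fibroblast markers was -0.02 and 0.04 in d1 BC and 1.17 and -1.50 in HE1, and their part was not tested. Myh11 kept only -0.23 under another background correction (normexp).

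SM minus HE1 gave 0 of 9 genes called by limma, against 0.543% of all genes, and 6 at an unadjusted p under 0.05 with a 2-fold change, against 8.27%. The differences were 2.60 for Myocd (adjusted p = 0.0662), 2.17 for Acta2, 3.23 for Cnn1 and 3.29 for Actg2, and 8 of 9 were positive. Within slides 4 and 5 they were 3.26 and 2.18 for Myocd, 3.49 and 0.65 for Acta2 and 4.53 and 2.33 for Cnn1. Actg2 was the 1 gene called without the slide 4 SM arrays (4.17, adjusted p = 0.0208) and, separately, without the slide 5 HE1 arrays (5.45, adjusted p = 0.0205). Without HE1 replicate 2 alone the Actg2 difference was 1.14 (adjusted p = 0.99).

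From HE1 to HE2, when CD41 appears, Acta2 fell by 3.08 on the log2 scale (SE 0.67, 8.43-fold, adjusted p = 0.0166), beside 1.79% of all genes called lower. Within slides 4 and 5 the difference was -2.31 and -3.84. Actg2 differed by -3.59 (adjusted p = 0.107), Cnn1 by -3.36 and Tagln by -2.65. Without HE1 replicate 1 and its +DOX partner the Acta2 difference was -2.04 (adjusted p = 0.31) and it was not called, and the Actg2 difference was -1.43. No contractile gene was called without replicate 1 of HE1, replicate 1 of HE2 or replicate 2 of HE2, left out in turn, and 2 were without replicate 2 of HE1. No contractile gene was called in HP minus HE2, where 0.00394% of all genes were, and 1, Acta2 at 1.55, had an unadjusted p under 0.05 with a 2-fold change, as had 5.90% of all genes.

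SM minus HP had 6 of 9 genes called higher, beside 6.22% of all genes tested. They were Actg2 (5.26, SE 0.99, 38.2-fold, adjusted p = 0.00153), Cnn1 (4.77, SE 1.08, 27.3-fold, adjusted p = 0.00666), Myocd (4.14, SE 0.63, adjusted p = 0.000248), Tagln (3.83, SE 0.86, adjusted p = 0.00593), Acta2 (3.70, SE 0.61, adjusted p = 0.000489) and Myl9 (3.36, SE 0.99, adjusted p = 0.0369). Myocd was well above background on 1 of the 2 HP arrays, and its difference ran from 1.77 to 5.40 over the settings tried, with a call in 20 of 21. Within slides 4 and 5 all 6 were higher in SM, by 2.64 to 3.27 on slide 4 and by 4.03 to 6.69 on slide 5. The remaining 3 were not called, with Des at 1.71, Smtn at -0.26 and Myh11 at least 3.94-fold higher in SM (adjusted p = 0.105), a bound because no HP array was above background. Without HP replicate 1, whose mean over the contractile genes was -1.46 against -0.12 on replicate 2, Cnn1, Myl9 and Tagln were not called (adjusted p = 0.28, 0.563 and 0.274), and Myl9 was not called without SM replicate 2 and its +DOX partner (0.0756), without SM replicate 1 (0.0713) or 3 (0.0596), with median scaling (0.0767) or with no filter (0.0517). The Myl9 call held in 14 of 22 settings. In sorted bulk RNA fewer cells of a type and less RNA per cell cannot be told apart.

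Leaving arrays out also changed the share of all genes called in either direction, against which the counts without them are to be read. Without the slide 5 HE1 arrays it went from 3.17 to 1.43% in HE1 minus d1 BC, from 2.33 to 0.321% in HE2 minus HE1 and from 0.543 to 0.293% in SM minus HE1. Without the slide 4 SM arrays it went from 0.543 to 3.47% in SM minus HE1, from 9.40 to 10.6% in SM minus HP, from 8.36 to 7.02% in SM minus FLK1 and from 0.260 to 0.346% in SM minus d1 BC.

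Of 31 other smooth muscle contractile and cytoskeletal genes on the array, 0 of 28 tested were called by limma at 5 h, with 8 higher at an unadjusted p under 0.05 and 2-fold, beside 9.35% of all genes. At 1 day 3 of 28 were called higher, beside 0.592% of all genes, namely Cald1, caldesmon (2.03), Fhl1 (2.94) and Pgm5 (4.39). HE1 minus d1 BC had 4 of 29 lower, beside 1.27% of all genes, namely Actn1 (-2.14), Fhl1 (-2.98), the tropomyosin Tpm1 (-3.50) and Kcnmb1 (-4.57), a subunit of a calcium-activated potassium channel. HE2 minus HE1 had 5 of 28 lower, beside 1.79% of all genes, namely Cald1 (-3.01), Itga8 (-4.49), Myh10 (-1.99), Nexn (-4.55) and Pdlim3 (-5.29). Without the slide 5 HE1 arrays 3 of 31 were lower in HE1 minus d1 BC (Kcnmb1, Tpm1 and Tpm2), and 0 of 30 in HE2 minus HE1, where 0.321% of all genes were still called. SM minus HP had 12 of 28 higher, beside 6.22% of all genes, and 0 lower, with a median of 1.80, and among them were Nexn (4.56), Itga8 (4.17), Cald1 (3.75) and Tpm1 (3.16). SM minus FLK1 had 7 of 27 higher, beside 5.85% of all genes, among them Nexn (5.13), Cald1 (3.45) and Fhl1 (2.19). Without the slide 4 SM arrays these counts were 12 of 28 higher and 1 lower, Mylk, against HP, and 7 of 27 higher against FLK1.

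Among 17 factors that act with SRF or myocardin, SRF itself (Srf) did not pass, with 0.11 in SM minus HP and -0.63 in SM minus FLK1. In SM minus HP 6 of 15 tested were called higher, beside 6.22% of all genes: Tbx20 (4.91), Gata6 (3.56), Tead1 (3.51), Fhl2 (3.28), Tead4 (2.80) and Tead3 (2.34). Mef2c, which is also used in blood and endothelium, was called lower (-3.07). Tbx20 (-3.96), Gata6 and Zeb1 (-1.72), 3 of 13 tested, were called lower in HE2 minus HE1, beside 1.79% of all genes, and Tead3 was called lower in HE1 minus d1 BC (-3.06) and higher in SM minus HE1 (2.43). Without the slide 4 SM arrays Tead3 was again called in SM minus HE1, and 6 of 15 co-factors were called higher in SM minus HP, with Foxf1 in place of Fhl2. Without the slide 5 HE1 arrays Tead3 was again called in HE1 minus d1 BC, but not in SM minus HE1, and no co-factor was called in HE2 minus HE1 (0.293% and 0.321% of all genes). No co-factor was called by limma in either of the first steps of blast culture. By an unadjusted p under 0.05 and 2-fold 4 were higher and 1 lower at 5 h, beside 9.35% and 5.38% of all genes, and 0 passed at 1 day, where 5.57% of all genes were higher.

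Of 18 genes of contraction signalling, the subunits of the nitric oxide receptor, soluble guanylate cyclase, were the 2 of 13 tested that were called higher at 1 day, beside 0.592% of all genes, Gucy1b1 by 5.26 and Gucy1a1 at least 6.79-fold. Ryr2, an intracellular calcium channel that is also a cardiac gene, was the 1 of 11 tested that was called higher at 5 h, beside 2.45% of all genes, at least 2.43-fold since no FLK1 array was above background. In SM minus HP Ppp1r14a (3.23), Kcnmb1 (2.47) and the angiotensin receptor Agtr1a were called higher, 3 of 14 tested beside 6.22% of all genes, and Gucy1a1 lower (-2.99). When the slide 4 SM arrays were left out Kcnmb1 was not called there, Ppp1r14a, Agtr1a and Gucy1a1 were, Mylk was called lower, and Agtr1a was also called higher in SM minus HE1 and SM minus d1 BC. Striated muscle actins were also higher in SM than in HP, Acta1 by 4.34 (adjusted p = 0.00861) and Actc1 by 4.71 (adjusted p = 0.0101), whereas the cytoplasmic actin Actb differed by 0.07.

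Fibroblast markers differed in the same direction as the contractile genes in some of these comparisons and not in others. Of 12 such markers 10 were called higher in SM minus HP, beside 6.22% of all genes, and 7 of 11 tested in SM minus FLK1, beside 5.85%, where 2 were called lower. In HE2 minus HE1 5 of 10 were called lower, beside 1.79%, and 0 of 11 without the slide 5 HE1 arrays, where calls over all genes fell to 0.321%. In SM minus HE1 0 of 11 fibroblast and 0 of 6 pericyte markers were called, while 4 of 11 and 2 of 6 were called higher without the slide 4 SM arrays and 2 of 12 and 1 of 7 without the slide 5 HE1 arrays, the fits in which Actg2 was called. At 5 h their mean was level, at -1.97 and -1.95 in FLK1 and -1.72 and -2.25 in FLK1+ 5h. Of 8 tested none was called higher, beside 2.45% of all genes, and 1 was called lower. From FLK1+ 5h to d1 BC, the step at which Acta2 was called again, the fibroblast mean was higher, at -0.02 and 0.04. The endothelial mean went from -2.15 and -2.15 to -0.92 and -0.83 at that step. From d1 BC to SM the fibroblast mean was higher while no contractile gene was called. Col1a2 was called higher in SM minus d1 BC (3.89), and again, with Col3a1, without the slide 4 SM arrays (0.346% of all genes). Of 13 cardiac markers tested at 5 h, 2 were called higher, Nppa (6.08) and Ryr2, beside 2.45% of all genes. In SM minus d1 BC 2 of 13 were called lower, Myl7 (-3.86) and Nppa (-2.64), beside 0.0303%, and in HE1 minus d1 BC 3 of 11, namely Myl4 (-5.07), Nppa (-3.48) and Myl7, beside 1.27%. In SM minus HP 5 of 13 were called higher, namely Actc1, Myh7 (2.86), Tnnt2 (2.85), Myl7 (2.45) and Myl2, beside 6.22%. Without the slide 4 SM arrays 3 of 13 were, beside 10.6% of all genes in either direction. In SM minus FLK1 3 of 13 were called higher, namely Myh7 (4.41), Tnnt2 (4.11) and Ryr2, beside 5.85%, and Myl7 was called lower. The same cardiac genes were called in SM minus FLK1 without the slide 4 SM arrays (7.02% of all genes). So were Myl7 and Nppa in SM minus d1 BC (0.346%). The cardiac count in HE1 minus d1 BC is given only with the slide 5 HE1 arrays. Without the slide 4 SM arrays 11 of 12 fibroblast markers were called higher and 1, Fap, lower in SM minus HP, and 8 of 11 higher and 1, Thy1, lower in SM minus FLK1 (10.6% and 7.02% of all genes). Of 12 endothelial markers 5 were called higher in HE1 minus d1 BC, beside 1.90% of all genes, and 2 without the slide 5 HE1 arrays, where 1.43% of all genes were called in either direction. Markers of pluripotency and early mesoderm were called higher in SM minus HP in 4 of 5 tested, beside 6.22% of all genes. Without the slide 4 SM arrays 6 of 7 were, beside 10.6% in either direction. In SM minus FLK1 5 of 8 were called lower with and without them, beside 7.02% in either direction without them. In SM minus HE1 0 of 5 were called, beside 0.543% of all genes, and 4 of 7 were called higher without the slide 4 SM arrays, beside 3.47%. Of 6 pericyte markers tested 2 were called higher in SM minus HP, with and without those arrays. Of all genes 6.22% were called higher with them, and 10.6% in either direction without them. Of the haematopoietic markers, without the slide 4 SM arrays, 3 of 11 were called higher in SM minus FLK1, namely Gata1, Hbb-bh1 and Klf1 (7.02% of all genes). In SM minus HE1 Gata1 and Hbb-bh1 were then called higher and Kit and Tal1 lower (3.47%). Klf1 was called higher in SM minus d1 BC (0.346%), and 9 of 12 were called lower in SM minus HP (10.6%). The part of these marker genes in the contractile values was not tested.

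With dnFOS induced, no contractile gene was called by limma in any of the 6 populations. Each was tested against untreated cells of the same population, with 8 of the 10 genes tested in FLK1+ 5h, 9 in d1 BC, SM and HE1, 6 in HE2 and 7 in HP. Among all genes tested 0.00839% were called in SM and 0.0318% in HP, and 0% in the other populations. Without adjustment (p under 0.05, 2-fold) 1 contractile gene passed, Des in SM, where 2.52% of all genes did, while 8.18% did in HE2, 5.20% in FLK1+ 5h, 3.43% in HP, 1.43% in d1 BC and 1.12% in HE1. The median +DOX difference over the contractile genes was -0.29 in SM against 0.08 over all genes. It was -0.36 against 0.09 in HE1, -0.18 against 0.13 in d1 BC, 0.01 against 0.11 in HE2, 0.11 against 0.01 in FLK1+ 5h and 0.12 against 0.29 in HP.

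In SM, Acta2 was at 8.74 and 9.43 with DOX, the first below and the second within the untreated range, and differed by -0.29 (95% interval -1.57 to 0.98). Tagln was at 7.67 and 9.19 and differed by -0.60 (-2.40 to 1.20), or by 0.16 without SM +DOX replicate 1. Myocd (-0.14), Myh11 (0.21), Smtn (0.25) and Myl9 (0.80) also had groups that overlap. Myl9 differed by -0.13 and Smtn by -0.25 without the slide 4 SM arrays.

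Among the 9 genes tested, Cnn1, Des and Actg2 had the most negative SM differences. Cnn1 was at 1.95 and 4.09 with DOX, both under the lowest untreated SM array (4.23), and differed by -1.61 (95% interval -3.88 to 0.66, adjusted p = 0.999). Des was at -2.41 and -4.61, both below the untreated arrays, and differed by -1.89 (95% interval -3.40 to -0.39, unadjusted p = 0.016, adjusted p = 0.999). Of all genes 6.06% had both +DOX SM arrays below every untreated one. Actg2 was at 1.41 and -0.57, within reach of the low untreated array, and differed by -1.90 (95% interval -3.98 to 0.18). Without the slide 4 SM arrays, which have raised endothelial markers, 1 SM +DOX array is left. The differences were then -2.45 for Cnn1, -0.74 for Des and -1.78 for Actg2.

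**Figure D4:**
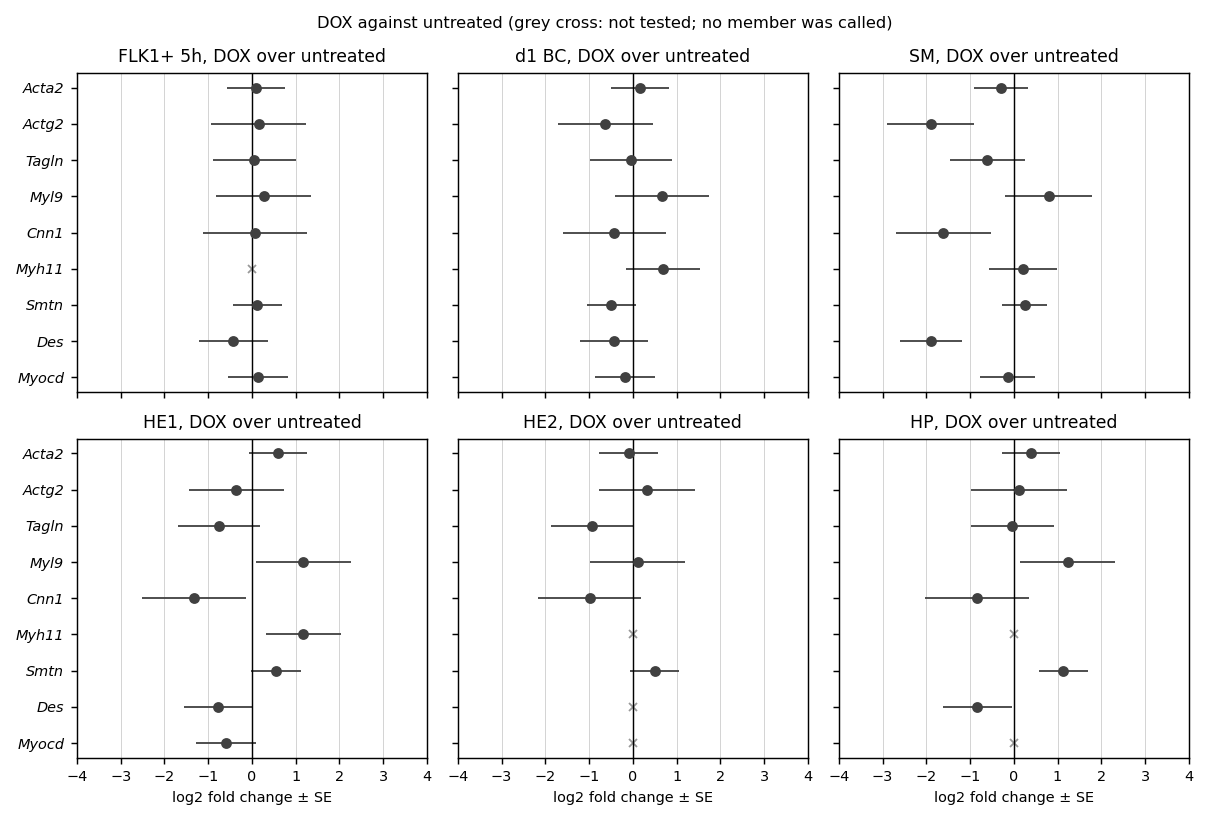
Log2 fold change of +DOX over untreated cells for 9 smooth muscle contractile genes in each of 6 populations, from the fit over all 27 arrays, with bars of 1 SE on either side and grey crosses for genes not tested. No gene is called, and the most negative values are those of Actg2 (-1.90), Des (-1.89) and Cnn1 (-1.61) in SM.

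Untreated and +DOX arrays of 1 population shared a slide in 11 cases, 1 for FLK1+ 5h and 2 for each other population. Cnn1 was lower with DOX in all 11 pairs, by 0.05 to 2.59 with a median difference of -0.74. It differed by -0.10 in FLK1+ 5h, by -0.40 and -0.44 in d1 BC, by -2.28 and -1.0 in SM and by -0.05 and -2.59 in HE1. In HE2 it differed by -0.72 and -1.26 and in HP by -0.93 and -0.74. Of the 20096 genes tested in all 6 populations 64 (0.318%) were lower in all 11 pairs. The count for Cnn1 was 11 with quantile normalisation, 10 with normexp background correction, 10 in the values processed by the authors and 9 with median scaling. By population the fit gave Cnn1 differences of -1.61 in SM, -1.32 in HE1, -0.99 in HE2, -0.84 in HP, -0.42 in d1 BC and 0.07 in FLK1+ 5h, none called. Over the settings tried the Cnn1 difference ran from -2.68 to -0.54 in SM, from -2.16 to -0.05 in HE1 and from -1.95 to -0.03 in HE2. The HP difference turned to 1.14 without HP replicate 2 and 1.05 without HP +DOX replicate 1, and the FLK1+ 5h difference to -0.38 without FLK1+ 5h replicate 2 and -0.55 without FLK1+ 5h +DOX replicate 1.

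Over the same 11 pairs Des was lower in 9, Tagln and Myocd in 8, Actg2 in 7, Myh11 in 6, Acta2 in 5, Smtn and Lmod1 in 4 and Myl9 in 3. Of the genes tested in all 6 populations 4.18% were lower in at least 9 pairs, though Des was not among those tested in all 6. With other scalings and background correction the count ran from 8 to 9 for Des, 6 to 10 for Tagln, 3 to 8 for Acta2, 6 to 8 for Actg2 and 2 to 3 for Myl9. On slide 4 Myl9 differed by 2.43 in HE1, 1.38 in SM, 1.22 in HP and 0.98 in HE2, and its other differences were -0.09 in HE1, -0.75 in HE2 and 1.24 in HP on slide 5 and -0.23 in SM on slide 1. On slide 4 Des differed by -2.17 in HE1, -3.09 in SM, -0.71 in HP and -1.73 in HE2, against 0.62 in HE1, -0.15 in HE2 and -0.96 in HP on slide 5 and -0.35 in SM on slide 1. Nearly all values of Lmod1, part of those of Myh11, Myocd and Des, and that of Actg2 on HE2 replicate 1 come from arrays on which the probe was not well above background.

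**Figure D5:**
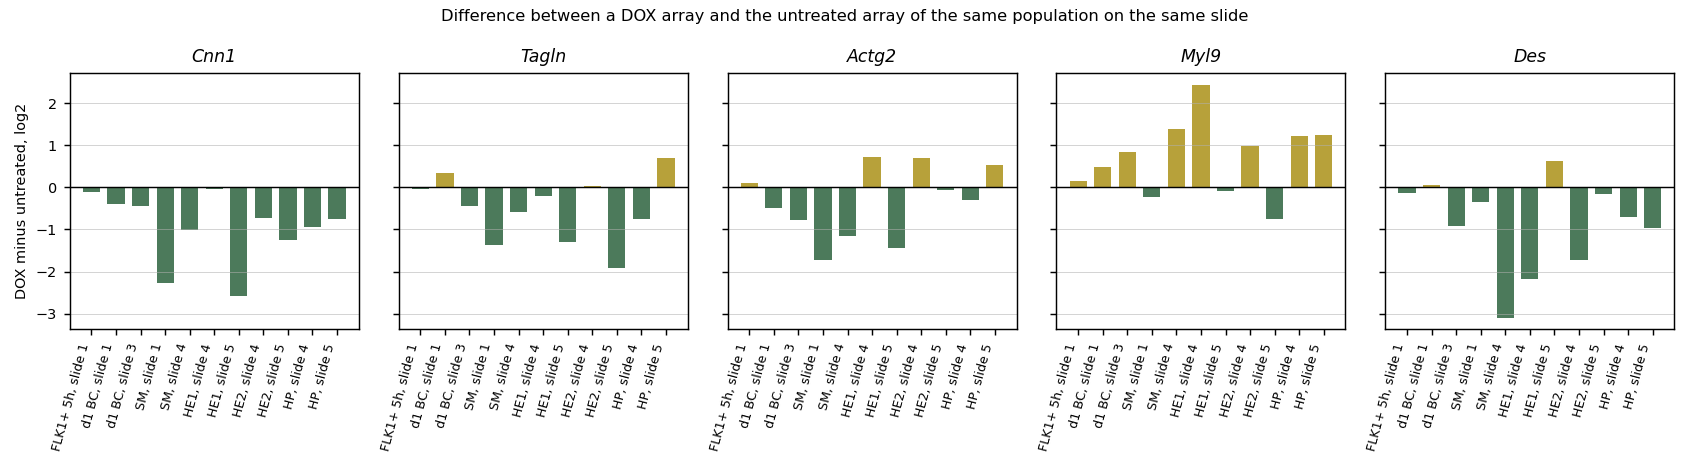
Difference in log2 level between the +DOX and the untreated array of the same population on the same slide, as 1 bar for each of 11 pairs, for Cnn1, Tagln, Actg2, Myl9 and Des. Green bars lie below 0 and yellow bars above it. Cnn1 lies below 0 in all 11 pairs (-0.05 to -2.59), Des in 9 and Myl9 in 3.

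Smtn was measured by 2 probes, of which the brighter is used above, and they did not move together with DOX. The brighter probe differed by 1.13 in HP, 0.55 in HE1, 0.50 in HE2, 0.25 in SM, 0.12 in FLK1+ 5h and -0.49 in d1 BC. The other differed by -0.32 in HP, -0.38 in HE1, -0.71 in HE2, -0.40 in SM, -0.03 in FLK1+ 5h and -0.70 in d1 BC. No direction is therefore given for Smtn.

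Steps between populations were also compared among +DOX cells, and Acta2 was called in the steps to d1 BC and to HE2. In +DOX cultures Acta2 was at 5.20 and 4.73 at 5 h and at 9.26 and 8.84 at 1 day, a rise of 4.09 (SE 0.67, adjusted p = 0.00415) with 4.11 and 4.06 within slides. Myh11 rose by 3.56 at the same step (SE 0.85, adjusted p = 0.0422), from -3.85 and -5.72, of which the second was not above background, to -1.86 and -0.59. The Myh11 call was lost without any 1 of these 4 arrays (adjusted p = 0.0606 to 0.486) and with normexp (1.92, adjusted p = 0.0831), and it held in 12 of 19 settings. These were 2 of 9 genes, beside 0.668% of all genes called higher. Between HE1 +DOX (7.75 and 7.86) and HE2 +DOX (3.69 and 4.37) Acta2 fell by 3.77 on the log2 scale (SE 0.67, adjusted p = 0.00703), beside 1.09% of all genes called lower, and the difference was -3.49 and -4.06 within slides. At the 1 day step no contractile gene was called without replicate 2 of either group, and 1 was without replicate 1 of either. The HE2 call was lost without HE1 +DOX replicate 1 or HE2 +DOX replicate 1. Without the slide 5 arrays of both HE1 groups, which leaves 1 HE1 +DOX array, the Acta2 difference there was -3.83. The mean of the fibroblast markers was 0.86 and -0.89 in HE1 +DOX and -3.11 and -3.62 in HE2 +DOX, and their part was not tested. No contractile gene was called by limma in SM minus d1 BC (0.0571% of all genes), SM minus HE1 (0.115%) or HP minus HE2 (0%) of +DOX cells, where 2, 3 and 1 had an unadjusted p under 0.05 and a 2-fold change, beside 4.39%, 7.02% and 2.78% of all genes. Untreated and +DOX steps rest on different arrays, and the difference of the DOX effect between populations was tested directly. It was called by limma for no contractile gene in any of 15 pairs of populations, beside 0% of all genes, and 1 such test of a contractile gene had an unadjusted p under 0.05 with a 2-fold change, against 2.59% over all genes. That p was 0.026, for Myh11 between HE1 and HE2 (adjusted p = 1). No size is given, since Myh11 was not above background on any untreated HE1 or any HE2 +DOX array, and was on 1 of 2 untreated HE2 arrays.

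No gene of the other smooth muscle, co-factor and contraction signalling lists was called by limma with DOX. Without adjustment (p under 0.05, 2-fold) 1 of the 28 other smooth muscle genes tested in SM was lower, 0 of 15 co-factors passed, and 2 of 14 genes of contraction signalling were higher, where 0.613% of all genes were higher and 1.91% lower. Among the other smooth muscle contractile and cytoskeletal genes tested in SM, the lowest difference was that of Ppp1r14a (-1.61, SE 0.97) and the highest that of Itga8 (1.38, SE 0.72). Ppp1r14a, an inhibitor of myosin phosphatase, was also the lowest in d1 BC (-0.85) and HE1 (-1.44), and Itga8 the highest in d1 BC (0.68), HE1 (1.88) and HE2 (1.94). Among SRF and myocardin co-factors the SM differences ran from -2.06 (Prrx1) to 0.75 (Tead4), and Srf differed by 0.64 (SE 0.77).

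Across the 13 groups the contractile genes did not share 1 pattern. The correlation of each with the mean of the others, given as a description over 13 group means that share arrays and scaling, was 0.98 for Tagln, 0.92 for Myocd and Myl9, 0.82 for Actg2, 0.77 for Cnn1, 0.72 for Myh11, 0.58 for Acta2, 0.49 for Des and -0.46 for Smtn. Acta2 and Actg2 correlated at 0.87 with each other, and Acta2 and Cnn1 at 0.26. Cnn1 correlated at 0.84 with Des and at 0.88 with Myocd. Outside the list, the genes whose 13 group means were most like the mean of the 9 measured contractile genes, among 16383 candidates, were Ppp2r5b (r = 0.984), Gpat3 (0.979), Col8a2 (0.978), Prkaa2 (0.976) and Lrp2 (0.976). They were followed by Ahnak, Arhgef16, Extl1, Tmem130 and Pkp2, at 0.966 to 0.971.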

How the data were processed

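RNA of 27 samples had been hybridised to Agilent SurePrint G3 mouse arrays in 1 colour. The deposited scanner files hold the processed intensity of each spot, background-corrected by the authors in Agilent Feature Extraction (10.7.1.1 in the submitters' processing notes). The deposited series matrix holds log2 values normalised by the authors, whose column medians were 5.98 to 6, and was used as an alternative. Here log2 intensity minus the log2 of the 75th percentile of each array was used, with 1 probe per gene, that of the highest mean. limma 3.58.1 in R 4.3.3 fitted 13 group means to all 27 arrays (14 residual and 4.34 prior degrees of freedom), and Benjamini-Hochberg adjustment ran over all genes tested in a comparison. A gene was tested where every array of either group compared had its probe well above background, and called at 2-fold or more with an adjusted p under 0.05. Scripts were tested on simulated data. All 10 contractile genes and the 10 genes of most similar group means are named, and of the other lists only part of the called genes. The genes and lists were chosen with earlier results of these data known. Alternatives covered background correction, scaling, filter, probe choice, blocks for replicate, slide and scan day, variance model, samples in the fit, threshold and each array left out. Leaving out the slide 4 SM arrays or the slide 5 HE1 arrays, and the CArG box with 1 G or C, were added after seeing the data.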

Additional observations from a re-analysis of the deposited data

How the results depend on the processing

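With 2 or 3 arrays a group, 4 of the 6 comparisons of untreated cells that had a called contractile gene, and both such +DOX steps, had at least 1 setting with none called. DOX gave 0 calls in all 6 populations under every setting with an adjusted p. At an unadjusted p under 0.05 with 2-fold, counts were 1 for DOX in SM, 1 for the differences between populations, 4 for FLK1+ 5h minus FLK1 (main 1), 5 for HE1 minus d1 BC (main 2), 5 for HE2 minus HE1 (main 1), 6 for that step with DOX (main 1), 1 for HP minus HE2 with and without DOX, 3 for SM minus HE1 and 2 for SM minus d1 BC with DOX, 5 for SM minus FLK1 (main 3), 6 for SM minus HE1 (main 0), and 4 for d1 BC minus FLK1+ 5h with DOX (main 2) and without (main 1). Of all genes, 14.7% passed that threshold for FLK1+ 5h minus FLK1, 16.9% for HE1 minus d1 BC, 9.22% for HE2 minus HE1 and 8.06% with DOX, 21.9% for SM minus FLK1, and 10.6% for d1 BC minus FLK1+ 5h and 8.05% with DOX.

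For FLK1+ 5h minus FLK1, 2 genes were called with quantile normalisation, the authors' values or array weights and 3 in a fit of only the groups compared. For d1 BC minus FLK1+ 5h, 2 were called with normexp or the authors' values, 3 with slide as a random block or array weights, and 0 with a fixed slide or scan day block or only the groups compared; with DOX, 1 was called with normexp, no filter or detection in both groups and 0 with only the groups compared. For HE1 minus d1 BC, 4 were called with quantile, median, authors' values or weights, 1 with no filter or detection in both groups, and 0 with a fixed slide block or only the groups compared. For SM minus HE1, 2 were called with normexp or weights, 1 with quantile, authors' values or either set of arrays left out, and 4 with a random slide block; with DOX, 1 with quantile, authors' values or the random slide block. For HE2 minus HE1, 2 were called with quantile or authors' values, 3 with a fixed slide or scan day block, 4 with a random one, and 0 with median scaling, weights, only the groups compared or the slide 5 HE1 arrays left out; with DOX, 2 with quantile, authors' values or any slide or scan day block, and 0 with median scaling or only the groups compared. SM minus HP had 2 with only the groups compared and SM minus FLK1 5 with weights. The share of all genes called is not given for these fits, nor for those with 1 array left out below. It is given only for the slide 4 SM and slide 5 HE1 arrays left out. These counts therefore cannot be read as particular to the contractile genes. The cause was not tested.

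Leaving out 1 array at a time gave 0 to 1 called genes for FLK1+ 5h minus FLK1, d1 BC minus FLK1+ 5h with and without DOX, SM minus HE1 and HE2 minus HE1 with DOX, 0 to 2 for HE1 minus d1 BC and HE2 minus HE1, 3 to 6 for SM minus HP, 2 to 3 for SM minus FLK1 and 0 to 0 elsewhere. The Cnn1 difference with DOX in FLK1+ 5h (main 0.07) turned to -0.068 with normexp, -0.072 with quantile, -0.62 with median scaling, -0.050 in the authors' values and -0.059 with scan day, and ran from -0.55 to 0.68 with 1 array left out. In HP (-0.84) it then ran from -2.81 to 1.14, and Tagln in SM (-0.60) from -1.36 to 0.16.

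No source used here says that a replicate number marks a shared culture, so the limma fits did not treat arrays as pairs. Deviations of same-numbered arrays correlated at 0.25 to 0.81 in 5 of 6 populations (-0.008 in FLK1+ 5h), which those fits ignore. The 11 same-slide pairs used above did join same-numbered arrays. A replicate block moved no count of called genes by more than 1.5 times (Acta2 in SM minus FLK1 was 8.57, adjusted p = 4.27e-06). That block leaves SM replicate 3 without weight, and a fixed slide block does the same to FLK1+ 5h replicate 1. Signal limits Lmod1 throughout, Myh11 in FLK1, FLK1+ 5h, HE1, HE2 and HP, and Myocd in HE2 and HP.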
